A study of Homo sapiens with 14 samples.

Results

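AGS is a cell line from a human gastric adenocarcinoma, with active beta-catenin signalling. The 3 libraries described here are 2 from AGS cells with an siRNA against ADAR, called libraries 1 and 2, and 1 from AGS cells with a control siRNA. They were taken by cell line and siRNA from 14 bulk RNA sequencing libraries of 4 cancer lines. The series is about what ADAR1 and NOP14 do to transcription. In the other 3 lines, BT-549 and MDA-MB-231 (triple-negative breast cancer) and NCI-H1395 (lung), the same knockdown was made with 2 ADAR siRNA libraries and 1 control each. No other treatment is given for the AGS cells. Whether the numbers 1 and 2 stand for repeats or for different siRNAs, and whether the cultures were separate, is not stated, so each library is given apart.

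ADAR encodes ADAR1, which turns adenosine into inosine in double-stranded RNA. Editing marks the cell's own duplexes, many of them formed by inverted repeats in introns and 3′ UTRs, so that the sensors MDA5 and PKR do not read them as viral. Loss of ADAR1 is known in some cancer lines for interferon induction and translational arrest, and in others for little response. An siRNA is a short RNA duplex through which transcripts of the same sequence are cut, so it lowers ADAR1 without removing it.

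The AGS libraries held 17286001 and 17028339 counts with ADAR siRNA, against 17756418 with control siRNA. Mitochondrial transcripts took 5.52% and 4.02% of the counts with ADAR siRNA, against 3.73% with control siRNA. Of 23 gastric and intestinal epithelial markers, 18 reached 1 CPM (the count after scaling for library size) in all 3 libraries, among them KRT8, CDX2, HNF4A and CDH17. TFF2, TFF3 and CDX1 had 0 counts in all 3. None of 5 lung markers reached 1 CPM in all 3 libraries, and NKX2-1 had 0 counts. In bulk RNA, fewer cells with a transcript and less of it per cell cannot be told apart.

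ADAR itself (ENSG00000160710.18, hg38 chromosome 1, 154581695 to 154628013) stood at 135 and 184 CPM with ADAR siRNA, against 768 CPM with control siRNA. That left 17.6% of the control level in library 1 and 23.9% in library 2. Both knockdown libraries were far below the control and close to each other. The log2 fold change was -2.27 ± 0.25 (SE, 2 libraries against 1; edgeR quasi-likelihood test, adjusted p = 0.000287). The residual level was 11.5% to 12.9% in BT-549, 10.5% to 11.9% in NCI-H1395 and 32.3% to 33.8% in MDA-MB-231, so AGS lay between the deeper and the shallower knockdowns. ADARB1, the other active editing enzyme, was at 58.0 and 47.5 CPM with ADAR siRNA, against 44.8 CPM with control siRNA (log2 fold change 0.24 ± 0.31, edgeR adjusted p = 1). NOP14 is a nucleolar protein of the small-subunit processome, which assembles the small ribosomal subunit. It was at 65.6 and 54.0 CPM with ADAR siRNA, against 67.5 CPM with control siRNA (-0.18 ± 0.33, edgeR adjusted p = 1).

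ADAR was the only gene called, which is 0.00417% of the 23959 genes tested in edgeR at an adjusted p under 0.05. At an unadjusted p under 0.05 the test gave 1193 genes (4.98%), where 1198 would be expected with no change. In simulated data the same fit called 14% of genes set to a 2-fold change and 71% of those set to 4-fold. A gene that was not called may therefore still have changed. DESeq2 called 14 of the 11882 genes to which it gave an adjusted p (0.118%), 9 lower and 5 higher. Its calls with at least 60 counts included ADAR, CCND1, CST4, KRT15, KRT81, SLC7A2, STOM and CYB5B among the lower and HSDL2, FILIP1L, MAP1B and H2AC6 among the higher genes. Another call, IGFBP1, was lower and had 36 counts over the 3 libraries. AGS has 1 control library, so most differences below are given as sizes in each knockdown library, with no claim of a test passed.

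Among 13525 genes with at least 60 counts over the 3 AGS libraries, library 1 had 505 genes past 2-fold higher (3.73%) and 567 lower (4.19%). Library 2 had 720 higher (5.32%) and 292 lower (2.16%). A difference was counted as shared only where both libraries passed 2-fold in the same direction. That left 230 genes higher (1.7%) and 66 lower (0.488%). Another 5 genes were past 2-fold higher in library 1 and lower in library 2, and 13 the other way round. The limit of 60 counts sums 2 knockdown libraries and 1 control. A scarce gene therefore passes it more easily when it is higher with ADAR siRNA than when it is lower. With a limit of 300 counts the shared numbers were 52 higher and 27 lower. At any size, 30.9% of all measured genes were higher in both libraries and 29.8% lower. These shares stand beside the counts given for gene lists below. The 2 ratios of a gene share the control library, so any deviation of that library enters both. The medians over all 13525 genes were -0.02 in library 1 and 0.03 in library 2 on the log2 scale, and with library totals in place of the trimmed-mean scaling that of library 2 moved to 0.15. Just inside the limit was H1-2, at 8.43 and 7.95 CPM with ADAR siRNA, against 3.91 CPM with control siRNA. Just outside it was RASSF4, at 5.80 and 6.81 CPM, against 2.85 CPM. On the lower side GDF15 was just inside, at 1353 and 1251 CPM, against 2708 CPM, and RNF135 just outside, with 15 and 19 counts, against 38.

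**Figure D1:**
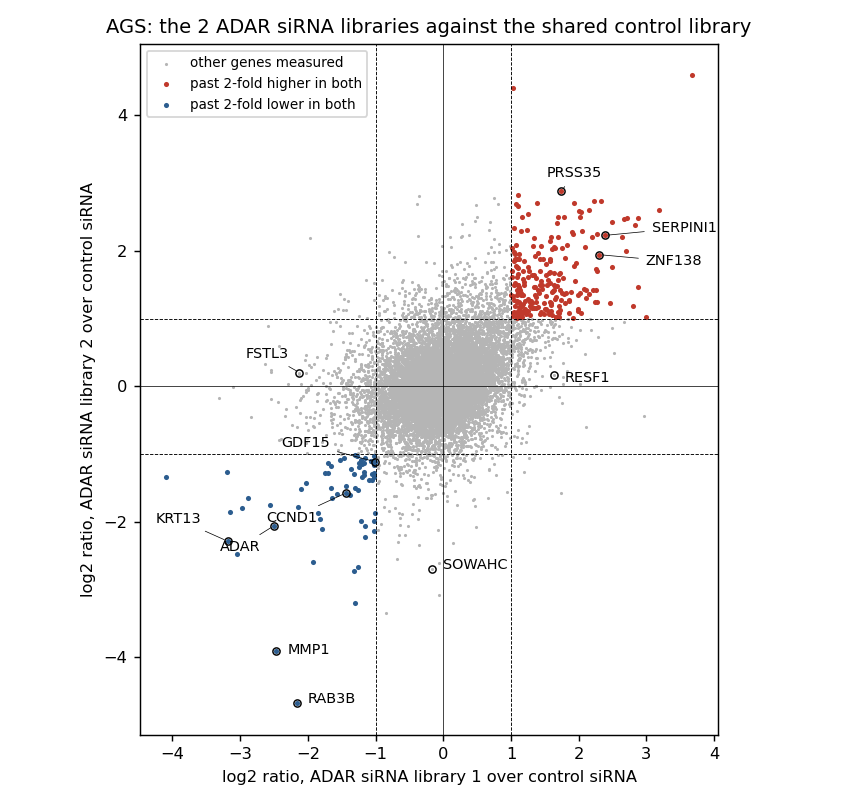
Log2 ratio of scaled CPM, ADAR siRNA over control siRNA, for 13525 genes in AGS, with library 1 on the horizontal and library 2 on the vertical axis; dashed lines mark 2-fold. The 230 genes past 2-fold higher in both libraries are red, the 66 lower in both are blue, and both axes share the 1 control library.

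The 230 shared higher genes were mostly of low abundance, with a median of 136.5 counts over the 3 libraries, against 1426 over all measured genes. Protein-coding genes made up 146 of them (63.5%), against 85.1% of all measured genes. Genes named ZNF, for zinc finger, made up 23 (10%, with the non-coding ZNF883), against 2.68% of all. The 66 shared lower genes had a median exon length of 2548 bases, against 5107 over all genes, and a median GC content of 53.5%, against 48.3%. An unadjusted edgeR p under 0.05 was given to 140 of the 230 and to 47 of the 66, with p-values from the same libraries that chose them.

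The genes furthest past 2-fold higher in both libraries were scarce in control cells. SERPINI1 (chromosome 3, 167735243 to 167825569), which encodes the serine protease inhibitor neuroserpin, had 161 and 149 counts with ADAR siRNA, against 29 with control siRNA. In CPM that was 9.43 and 8.46, against 1.72, or 5.48-fold and 4.92-fold more (log2 fold change 2.37 ± 0.60, edgeR adjusted p = 0.519). PRSS35, a protease-like secreted protein, was at 24.6 and 54.3 CPM with ADAR siRNA, against 7.29 CPM with control siRNA. GREB1L, known for its role in kidney and inner ear development, was at 6.38 and 9.37 CPM with ADAR siRNA, against 1.48 CPM. The rule that chose these genes already sets both knockdown values above the control. The 95% counting interval of SERPINI1 in library 1 ran from 1.88 to 3.08 on the log2 scale. It comes from the same counts that chose the gene. ZNF138, a zinc finger gene of chromosome 7, was at 22.8 and 17.9 CPM with ADAR siRNA, against 4.57 CPM with control siRNA. ARHGAP31, which switches off the GTPases Rac and Cdc42, was at 10.6 and 7.32 CPM, against 2.13 CPM. ECM2, FBXW10B and CSMD3 completed the 8 named by the rule, each with 85 to 246 counts per library with ADAR siRNA, against 22 to 40 counts with control siRNA. None of the 8 passed the edgeR threshold without a term for library number. With that term, SERPINI1, PRSS35, GREB1L, ZNF138 and ARHGAP31 passed, at an edgeR adjusted p from 0.0013 to 0.035. ECM2, FBXW10B and CSMD3 did not.

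The genes furthest past 2-fold lower in both libraries, ADAR apart, included several secreted and epithelial proteins. CST4 (chromosome 20, 23685640 to 23689038), the salivary protease inhibitor cystatin S, had 13 and 21 counts with ADAR siRNA, against 120 with control siRNA. Its log2 fold change was -2.85 ± 0.46 with an edgeR adjusted p of 0.0505, just outside the threshold, and it was called in 7 of 12 alternative analyses. KRT13, a keratin of stratified epithelia, was at 5.80 and 10.9 CPM with ADAR siRNA, against 53.6 CPM with control siRNA (-2.68 ± 0.63, edgeR adjusted p = 0.519). MMP1, the interstitial collagenase, was at 6.97 and 2.50 CPM, against 38.9 CPM (-3.04 ± 1.14, edgeR adjusted p = 0.997). It was further below the control in library 2 than in library 1. RAB3B, a vesicle GTPase, had 20 and 2 counts with ADAR siRNA, against 95 with control siRNA. CCL22, a chemokine, had 37 and 23 counts, against 143, and IL1RN, the interleukin-1 receptor antagonist, had 8 and 23 counts, against 85. Of 7 immune cell markers, PTPRC, CD3E and CD14 had 0 counts in all 3 libraries, and only CSF1R reached 1 CPM in all 3. PSAPL1, a relative of the lysosomal lipid-binding protein prosaposin, had 63 and 64 counts, against 228. With the term for library number in the edgeR fit, CST4, KRT13, MMP1 and RAB3B were called, and CCL22, IL1RN and PSAPL1 were not.

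**Figure D2:**
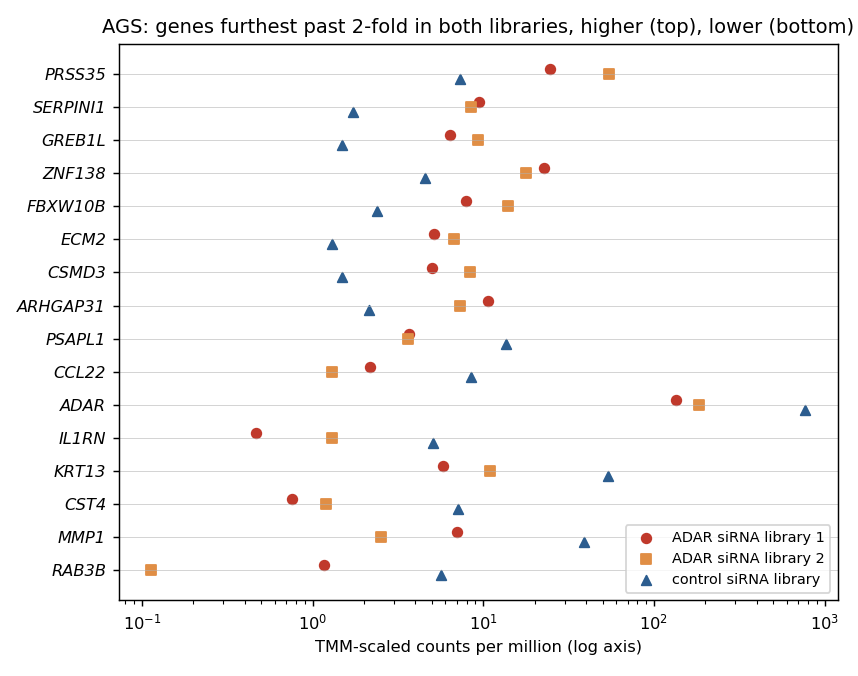
Scaled CPM on a log axis in each AGS library for the 8 protein-coding genes furthest past 2-fold higher and the 8 furthest lower in both libraries. By the rule that chose the genes, both ADAR siRNA points lie on the same side of the control triangle. ADAR is the only one called by the edgeR fit without a term for library number.

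Several keratins were lower like KRT13, a group looked at after the values were seen. Of 16 keratin genes measured, 11 were lower and 1 was higher in both libraries, against 29.8% and 30.9% of all measured genes. Their median log2 ratio was -1.02 in library 1 and -0.27 in library 2. KRT15, a basal-layer keratin, was at 19.7 and 15.8 CPM with ADAR siRNA, against 68.6 CPM with control siRNA. KRT81, a hair keratin, was at 10.1 and 17.6 CPM, against 59.5 CPM. KRT6A had 68 and 68 counts, against 142. Among the simple-epithelial keratins that mark gastric cells, KRT18 had log2 ratios of -0.44 and -0.33 and KRT8 -0.68 and 0.07. KRT19 was at 684 and 903 CPM with ADAR siRNA, against 1043 CPM with control siRNA. KRT7 was further below the control, at log2 ratios of -1.91 and -0.60. Keratin genes include near-identical copies, such as KRT81, KRT83 and KRT86, whose reads the counting could have split.

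Among abundant genes CCND1 was far below its control level. CCND1 (chromosome 11, 69641156 to 69654474) encodes cyclin D1, which drives entry into the cell cycle and responds to both MAPK and beta-catenin signalling. It had 20269 and 18976 counts with ADAR siRNA, against 54110 with control siRNA, which is 1187 and 1077 CPM against 3208 CPM. The log2 ratios were -1.43 in library 1 and -1.57 in library 2 (log2 fold change -1.50 ± 0.31, edgeR adjusted p = 0.309, DESeq2 adjusted p = 0.0295). The log2 ratios of CCND1 in the 6 ADAR siRNA libraries of the other lines ran from -0.94 to 0.13.

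The MAPK output genes, a list of ERK targets and feedback inhibitors, leaned the same way in library 2 and less in library 1. Of 25 measured, 15 were lower and 4 higher in both libraries, with medians of -0.06 and -0.44. An unadjusted edgeR p under 0.05 was given to 6 of the 25, all lower, against 2.32% of all measured genes in that direction. They were CCND1, SPRY4, ETV4, DUSP6, ETV1 and EPHA2. SPRY4, a feedback inhibitor of receptor tyrosine kinases, was at 102 and 115 CPM with ADAR siRNA, against 209 CPM with control siRNA. DUSP6, a phosphatase of ERK, was at 86.4 and 49.0 CPM, against 121 CPM. MYC was at log2 ratios of 0.00 and -0.13. Among 19 measured Wnt and beta-catenin targets, 10 were lower and 3 higher in both, and AXIN2, the classical feedback target, was lower in library 1 (-1.09) and higher in library 2 (0.30).

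Cell cycle genes were lower in both libraries as a group. Of 31 mitosis genes measured (of 32 listed), 27 were lower and 0 higher in both libraries, against 29.8% and 30.9% of all genes. The medians were -0.34 in library 1 and -0.82 in library 2. For 13 genes the unadjusted edgeR p was under 0.05, all lower, against 2.32% of all measured genes in that direction. None of the 31 passed the adjusted threshold. CDC20, the activator of the anaphase-promoting complex, was at 92.9 and 97.3 CPM with ADAR siRNA, against 176 CPM with control siRNA (-0.89 ± 0.25, edgeR adjusted p = 0.643). CCNA2, the S and G2 cyclin, was at 68.7 and 73.4 CPM, against 123 CPM. BIRC5, or survivin, was at 34.2 and 29.1 CPM, against 59.0 CPM. CENPE, a kinetochore motor, differed between the libraries, with log2 ratios of 0.47 and -1.01. NUSAP1 was the list member not measured, with 4, 1 and 1 counts.

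DNA replication genes showed a similar shift in the 2 libraries. Of 39 measured, 33 were lower and 1 was higher in both, against 29.8% and 30.9% of all measured genes. The medians were -0.50 and -0.43. An unadjusted edgeR p under 0.05 was given to 8, all lower, against 2.32% of all measured genes in that direction. DUT, which keeps uracil out of DNA, was at 46.0 and 38.9 CPM with ADAR siRNA, against 83.9 CPM with control siRNA. MCM5, a subunit of the replicative helicase, was at 75.2 and 81.8 CPM, against 162 CPM. Among 21 homologous recombination and Fanconi genes, 17 were lower and 2 higher in both, with FANCA at 42.3 and 46.3 CPM, against 72.2 CPM. The CDK inhibitor CDKN1A (p21) was at log2 ratios of -0.23 and -0.03.

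Promoters of these genes are known for short motifs that tie them to the cell cycle, the CHR element TTTGAA and the CCAAT box for mitotic genes and E2F-type sites for replication genes. In RefSeq promoter windows of 300 bases (250 before to 50 after the start, GRCh38.p14, both strands), TTTGAA occurred in 18 of 26 mitosis promoters (69.2%), against 15.4% of all 27305 promoters. CCAAT occurred in 21 of the 26 (80.8%), against 35.7% of all. Any of TTCCCGCC, TTTCCCGC and TTTGGCGC occurred in 21 of 34 DNA replication promoters (61.8%), against 4.61% of all. A match describes the letters only. The promoter of CDC20 (chr1:43358731-43359030, plus strand) and that of RFC4 (chr3:186806433-186806732, minus strand) are shown because they hold several of these motifs; capitals mark TTTGAA and CCAAT in CDC20 and TTCCCGCC in RFC4, on either strand. RFC4, a subunit of the clamp loader, had 358 and 275 counts with ADAR siRNA, against 500 with control siRNA.
CDC20: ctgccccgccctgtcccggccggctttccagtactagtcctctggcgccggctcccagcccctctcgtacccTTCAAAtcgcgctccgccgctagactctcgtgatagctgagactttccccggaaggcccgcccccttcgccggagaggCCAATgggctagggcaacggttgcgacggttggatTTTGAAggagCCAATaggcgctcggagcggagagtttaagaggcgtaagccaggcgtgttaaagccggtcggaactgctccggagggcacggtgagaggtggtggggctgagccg
RFC4: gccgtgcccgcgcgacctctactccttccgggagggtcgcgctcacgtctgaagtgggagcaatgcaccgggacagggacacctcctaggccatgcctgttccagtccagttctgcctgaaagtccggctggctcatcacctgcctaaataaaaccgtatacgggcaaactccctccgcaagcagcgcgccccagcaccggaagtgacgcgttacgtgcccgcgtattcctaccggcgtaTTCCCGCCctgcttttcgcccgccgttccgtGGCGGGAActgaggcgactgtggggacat

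Histone transcripts were higher, unlike the replication genes. Replication-dependent histone mRNAs normally end in a stem-loop without a poly(A) tail, so a poly(A)-selected library sees only a small part of them, and 6 of 22 listed genes reached 60 counts. All 6 were higher in both libraries, with medians of 1.17 and 1.44, under a count limit that favours scarce genes higher with ADAR siRNA. H2AC6 had 261 and 321 counts with ADAR siRNA, against 120 with control siRNA (1.23 ± 0.30, edgeR adjusted p = 0.519, DESeq2 adjusted p = 0.0319). H2BC21 had 97 and 97 counts, against 31. H2BC5 had 48 and 106 counts, against 19. Below the count limit the direction was not uniform, with H2AC20 at 22 and 9 counts, against 27, and H2BC9 at 6 and 15, against 3. The linker histone H1-10, whose mRNA carries a poly(A) tail and which was named after its values were seen, was lower at 95.7 and 90.9 CPM, against 194 CPM.

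Genes of translation and energy production differed from the control by small amounts. Of 76 cytosolic ribosomal protein genes measured, 75 were lower and 0 higher in both libraries, with medians of -0.35 and -0.40. RPS25 was at 126 and 140 CPM with ADAR siRNA, against 208 CPM with control siRNA (-0.64 ± 0.25, edgeR adjusted p = 0.974). RPL39 was the exception, with log2 ratios of 0.19 and -0.12. Of 75 nuclear respiratory chain genes, 52 were lower and 9 higher in both, with medians of -0.25 and -0.21. Among the 13 mitochondrially encoded genes, 9 were higher and 0 lower in both, with medians of 0.53 in library 1 and 0.14 in library 2. With library totals as the scale the ribosomal protein median over both libraries was -0.30 in place of -0.39.

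Hypoxia and glycolysis genes were lower in both libraries in 20 of 26 cases and higher in 2, with medians of -0.40 and -0.44. SLC2A1, the glucose transporter GLUT1, had 30978 and 39206 counts with ADAR siRNA, against 64789 with control siRNA. ENO1 had 29408 and 26758 counts, against 39355. EGLN3, an oxygen-sensing prolyl hydroxylase, was higher at 142 and 96.0 CPM, against 64.2 CPM. The 20 endoplasmic reticulum chaperone genes were lower in both in 13 cases and higher in 0, with medians of -0.17 and -0.54. SDF2L1 was at 17.0 and 17.7 CPM with ADAR siRNA, against 40.5 CPM with control siRNA (-1.22 ± 0.31, edgeR adjusted p = 0.519). HSPA5, which encodes the chaperone BiP, differed between the libraries, with log2 ratios of 0.22 in library 1 and -1.31 in library 2.

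**Figure D3:**
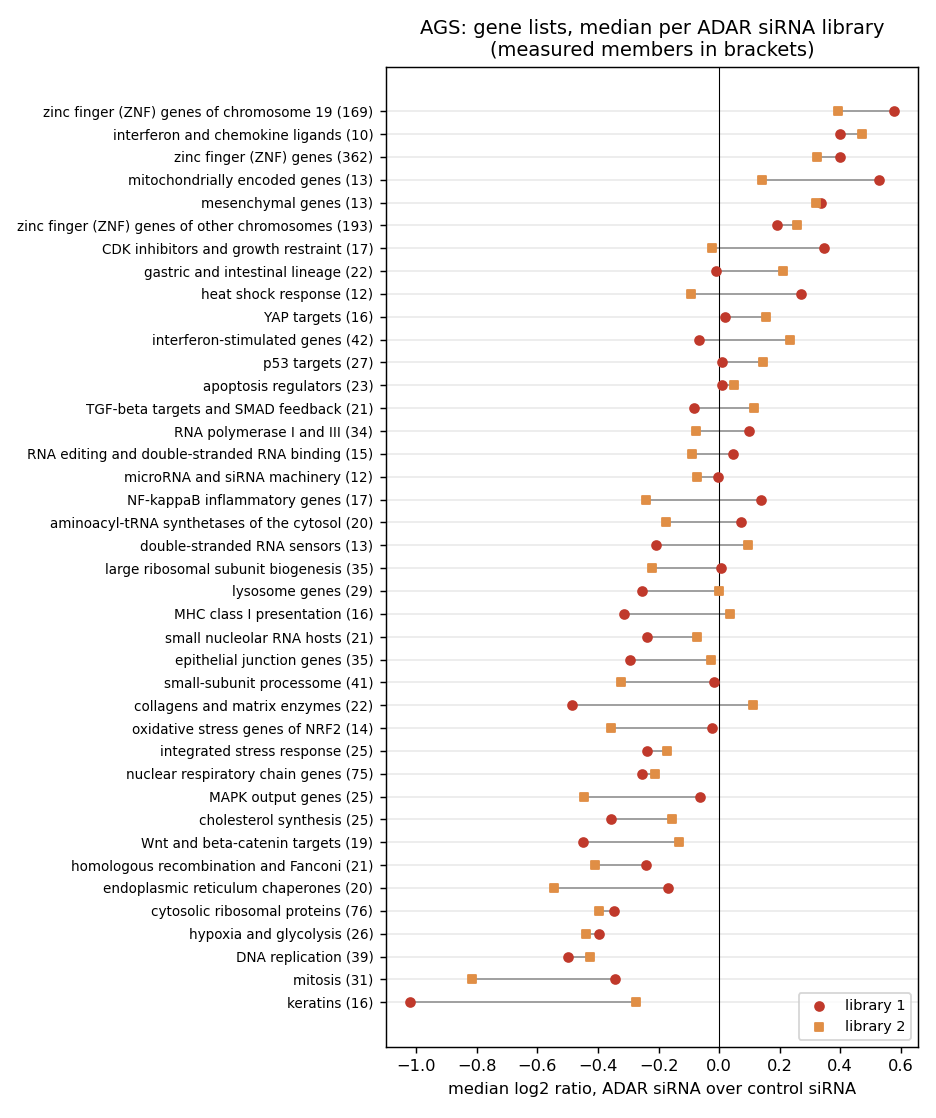
Median log2 ratio, ADAR siRNA over control siRNA, in AGS library 1 (circles) and library 2 (squares) for the gene lists with at least 10 measured members, whose number is in brackets. Mitosis, DNA replication, ribosomal protein and glycolysis lists lie left of 0 in both libraries and zinc finger genes right of 0; the medians of all genes are -0.02 and 0.03.

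Genes of the double-stranded RNA response were split between higher and lower. Of 42 interferon-stimulated genes measured, 17 were higher and 12 lower in both libraries, against 30.9% and 29.8% of all genes, and the medians were -0.06 in library 1 and 0.23 in library 2. Many of them were already abundant in control cells. ISG15 had 7643 and 9837 counts with ADAR siRNA, against 10445 with control siRNA. IFIT1 had 4030 and 4475 counts, against 2878. OAS3, which makes the activator of RNase L, was at 687 and 677 CPM, against 1180 CPM (-0.79 ± 0.86, edgeR adjusted p = 1). SP110 and DDX60L were higher, at 46.8 and 52.4 CPM against 29.2 CPM for SP110 and 165 and 141 CPM against 98.8 CPM for DDX60L. None of the 42 was called, and 1 had an unadjusted edgeR p under 0.05 in the higher direction.

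The sensors themselves were close to the control. IFIH1 (MDA5) had log2 ratios of 0.31 and 0.13, EIF2AK2 (PKR) 0.23 and 0.07, and RIGI 0.22 and 0.33. IFNB1, the gene of interferon beta, had 47 and 50 counts with ADAR siRNA, against 19 with control siRNA. The 95% counting intervals of its log2 ratios ran from 0.49 to 2.14 in library 1 and from 0.55 to 2.18 in library 2. In the fit its log2 fold change was 1.31 ± 0.92 (edgeR adjusted p = 1). CXCL11 was at 20.8 and 12.9 CPM, against 7.77 CPM. Integrated stress response genes, which report on PKR and its sister kinases, were lower in both in 15 of 25 cases and higher in 3, with medians of -0.24 and -0.17. DDIT4 was at 598 and 633 CPM with ADAR siRNA, against 880 CPM with control siRNA. ATF4, the factor at the centre of that response, had log2 ratios of -0.17 and -0.17, and ATF3 0.80 and 0.32.

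Growth restraint and p53 genes gave single differences rather than a list-wide shift. GDF15, a secreted stress protein and p53 target, was at 1353 and 1251 CPM with ADAR siRNA, against 2708 CPM with control siRNA (-1.06 ± 0.32, edgeR adjusted p = 0.698). BTG2, an antiproliferative p53 target, was at 131 and 198 CPM, against 80.5 CPM. Of 27 measured p53 targets, 11 were higher and 5 lower in both, against 30.9% and 29.8% of all measured genes. Their medians were 0.01 and 0.15. Of 13 measured mesenchymal genes, 5 were higher and 2 lower in both libraries and 6 were split. Over all measured genes the shares were 30.9% higher and 29.8% lower. The 3 mesenchymal genes with an unadjusted edgeR p under 0.05 were higher, a direction in which 2.79% of all measured genes had one. FN1 (fibronectin) had 59 and 91 counts, against 21, ACTA2 had 216 and 175, against 77, and CDH11 had 229 and 345, against 132. The 10 fibroblast and endothelial markers summed to 45.9 and 82.9 CPM with ADAR siRNA, against 62.8 CPM with control siRNA. Of these 10 markers, 2 reached 1 CPM in all 3 libraries. COL1A1 was at 27.5 and 44.9 CPM, against 29.6 CPM, and PDGFRA at 17.1 and 34.0 CPM, against 32.4 CPM. COL1A2, DCN and CDH5 had 0 counts in all 3 libraries.

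Zinc finger genes were frequent among the shared higher genes, a pattern also looked at after the values were seen. Many ZNF genes encode DNA-binding proteins with a KRAB domain that silence transposable elements, and many sit in clusters of young, similar copies on chromosome 19. Of 362 measured protein-coding ZNF genes, 222 were higher and 42 lower in both libraries, with medians of 0.40 and 0.32. An unadjusted edgeR p under 0.05 in the higher direction was given to 54 of the 362, where 2.79% of all measured genes had one. None was called by edgeR. The 169 on chromosome 19 had medians of 0.58 and 0.39, while all measured genes of chromosome 19 had medians of -0.31 and 0.11.

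Among the windows of 4 megabases on chromosome 19 with at least 5 measured ZNF genes, the one from 20 to 24 megabases had the highest ZNF medians. All 12 ZNF genes measured there were higher in both libraries, 4 of them past 2-fold, with medians of 1.04 and 0.83. ZNF708 had 529 and 416 counts with ADAR siRNA, against 134 with control siRNA. ZNF429 had 283 and 261, against 81, ZNF675 had 408 and 328, against 127, and ZNF91, a repressor of young retroelements, had 656 and 434, against 204. In the other 9 windows the medians ran from 0.16 to 0.96 in library 1 and from 0.23 to 0.55 in library 2. With the GC and length trend removed, the window from 48 to 52 megabases was higher in library 1, at 0.78 against 0.74. Outside chromosome 19, ZNF267 was at 84.5 and 35.7 CPM, against 15.2 CPM, and ZNF117 at 44.5 and 25.6 CPM, against 10.3 CPM. The counts of similar ZNF copies are uncertain where reads could match several of them.

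GC content moved with the ratios of library 1 and hardly with those of library 2. In library 1 the median log2 ratio was 0.29 over the 1326 genes with the lowest GC content (median 37.0%) and -0.51 over the 1326 with the highest (63.9%). In library 2 the same genes gave -0.05 and 0.08. The ZNF genes have a median GC content of 43.9%. After removal of the GC and length trend their medians were 0.30 and 0.29. The part of GC content alone was not tested. With the trend removed, mitosis genes were at -0.43 and -0.81, DNA replication genes at -0.48 and -0.42, ribosomal protein genes at -0.33 and -0.37, and keratins at -0.65 and -0.28. The glycolysis medians were then -0.22 and -0.48, those of the integrated stress response -0.13 and -0.22 (with 13 lower and 4 higher in both), and those of the Wnt targets -0.28 and -0.19. The homologous recombination and Fanconi medians were -0.53 and -0.44, against -0.24 and -0.41 without the removal. The shared counts became 230 higher and 46 lower.

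**Figure D4:**
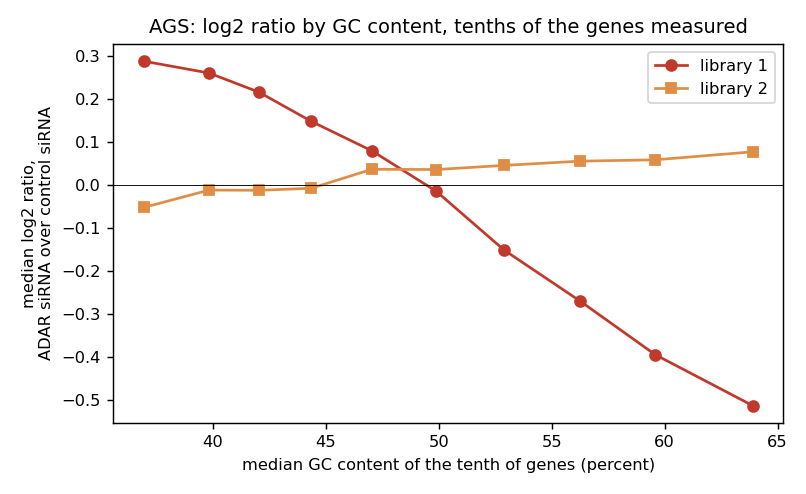
Median log2 ratio, ADAR siRNA over control siRNA, in 10 equal bins of the AGS genes ordered by GC content (horizontal axis, median percent of each bin), for library 1 (circles) and library 2 (squares). Library 1 runs from 0.29 to -0.51 and library 2 from -0.05 to 0.08.

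Some genes differed strongly in only 1 of the knockdown libraries. RESF1, a factor for retroelement silencing, was at 455 CPM in library 1 and 164 CPM in library 2, against 146 CPM with control siRNA. AMN1 was at 35.2 and 14.2 CPM, against 12.7 CPM, and ENSG00000276900 at 15.9 and 4.14 CPM, against 3.62 CPM. These 3 lie between 31671142 and 31993107 on chromosome 12, and AMN1 and ENSG00000276900 overlap at their ends, so they may share reads. ETFBKMT, which overlaps the other end of AMN1, had log2 ratios of -0.09 and -0.24. Over the 6 ADAR siRNA libraries of the other lines, log2 ratios ran from 0.34 to 0.91 for AMN1 and from 0.74 to 1.61 for ENSG00000276900. Those of RESF1 ran from 0.03 to 1.09, with 1.09 and 1.08 in MDA-MB-231. SLCO1B1 and LIPT1 were the other genes named as higher in library 1 alone. FSTL3, a binding protein of activin, was at 44.3 CPM in library 1 and 222 CPM in library 2, against 193 CPM in the control, and ALPP, NYAP2, ENSG00000229167 and LRRC45 shared that pattern. In the other 3 lines library 1 was also below library 2 for FSTL3 and LRRC45. FSTL3 had log2 ratios of -0.69 and 0.19 in BT-549, -1.20 and -0.18 in NCI-H1395 and -0.90 and -0.42 in MDA-MB-231. LRRC45 had -0.15 and 0.14 in BT-549, -0.80 and -0.16 in NCI-H1395 and -0.32 and 0.05 in MDA-MB-231. ALPP, NYAP2 and ENSG00000229167 did not share this in every line, and the part of the library number was not tested.

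In library 2 alone, SOWAHC was at 46.4 CPM, with 269 CPM in library 1, against 301 CPM in the control. BHLHA15 (MIST1), a factor of secretory cells, was at 1.76 CPM in library 2 and 15.1 CPM in library 1, against 15.7 CPM. SHCBP1, RFK and LIN7C were likewise lower in library 2 alone, at log2 ratios of -2.12, -1.75 and -1.62. Within AGS these belong to library 2, but in BT-549 and NCI-H1395 library 2 was also the lower one for all except BHLHA15. BHLHA15 had log2 ratios of -0.79 and -0.29 in libraries 1 and 2 of BT-549, and of -0.13 and -0.90 in those of NCI-H1395. SOWAHC had log2 ratios of 0.05 and -1.76 in libraries 1 and 2 of BT-549, and of 0.07 and -2.11 in those of NCI-H1395. LIN7C had -0.41 and -1.86 in BT-549 and -0.52 and -2.11 in NCI-H1395, RFK had 0.01 and -0.97 in BT-549 and -0.26 and -1.72 in NCI-H1395, and SHCBP1 had -0.13 and -0.85 in BT-549 and -0.62 and -1.41 in NCI-H1395. In MDA-MB-231 library 2 was not below library 1 for any of these 4 genes. What the library number stands for is not stated, and its part in these differences was not tested gene by gene. The genes higher in library 2 alone were YPEL4, PCDHGB2, SULT1C2, FGD3 and CEACAM19. CEACAM19 was at 13.4 CPM in library 1 and 42.5 CPM in library 2, against 13.0 CPM in the control. NOTUM, a secreted Wnt inhibitor, went opposite ways, with 15.9 CPM in library 1 and 118.7 CPM in library 2, against 45.9 CPM with control siRNA, and was named after its values were seen.

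The AGS response was set against the mean response of the other 3 lines in the same fit. No gene passed an adjusted p under 0.05 in edgeR (0% of 23959), 793 (3.31%) had an unadjusted p under 0.05, and DESeq2 called 3. GDF15 had the smallest p. Its log2 ratios were -1.001 and -1.114 in AGS, against -0.08 and -0.54 in BT-549, 1.11 and 0.24 in NCI-H1395 and 2.87 and 3.41 in MDA-MB-231, a difference of -2.28 ± 0.37 (edgeR adjusted p = 0.209). The others named by this comparison were DDIT4, PHF19, SPRY4, HSDL2 and MAP1B, all with an adjusted p of 0.834 in edgeR. HSDL2, a peroxisomal and mitochondrial dehydrogenase-like protein, had 823 and 825 counts with ADAR siRNA, against 303 in the AGS control. The mitosis median was below 0 in all 8 ADAR siRNA libraries of the 4 lines, from -0.93 to -0.14 in the other 3.

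Few of the shared AGS differences recurred in every line. Of the 230 higher genes, 21 (9.13%) were also higher in all 6 knockdown libraries of the other lines, against 4.59% of all measured genes. They included SERPINI1, ZNF267, ZNF117 and MAP2, a neuronal microtubule protein at 62.1 and 55.7 CPM with ADAR siRNA, against 19.8 CPM in the AGS control. Of the 66 lower genes, 4 (6.06%) were lower in all 6, against 8.50% of all genes, and ADAR was 1 of them. The other 3, SPINK4, NME2 and SEPTIN10P1, were under 5 CPM in every AGS library. Mitosis and ribosomal protein medians had the same sign in every line. The chromosome 19 ZNF median was 0.40 in NCI-H1395 library 1, between -0.03 and 0.09 in the other 5 libraries of the other lines, and 0.58 and 0.39 in AGS.

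**Figure D5:**
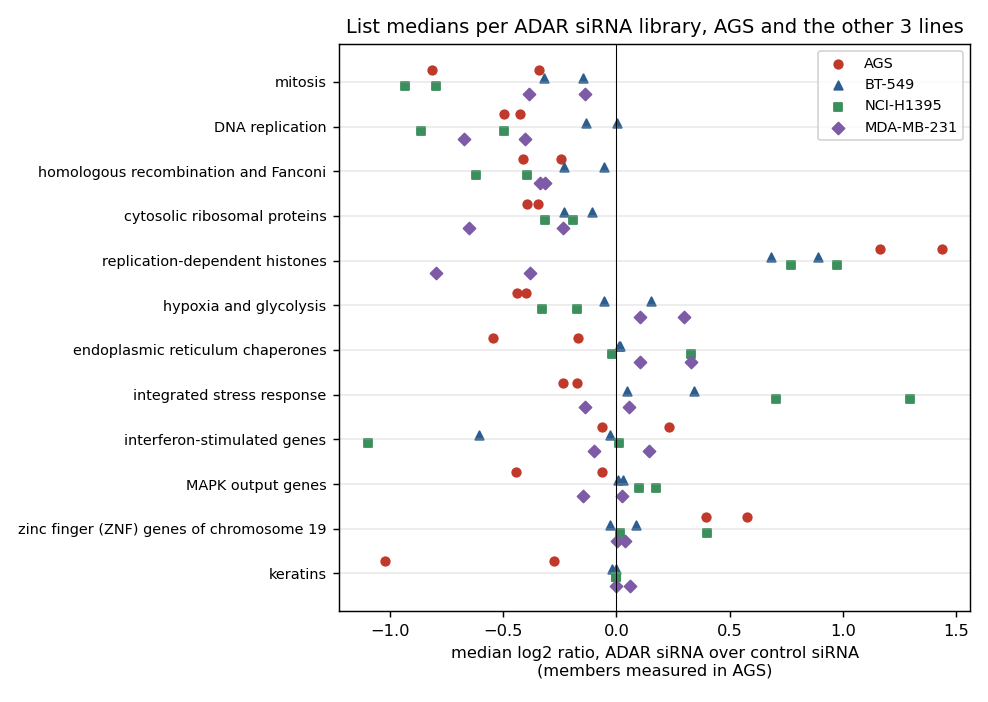
Median log2 ratio, ADAR siRNA over control siRNA, of 12 gene lists in each ADAR siRNA library of AGS (red circles) and of the other 3 lines, over the members measured in AGS. AGS lies with the other lines for mitosis and ribosomal proteins; the integrated stress response list is at -0.24 and -0.17 in AGS and at 1.29 and 0.71 in NCI-H1395.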

How the data were processed

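Poly(A) RNA libraries were sequenced in bulk, per the labels' protocols. The authors deposited raw counts per gene. The submitters' processing notes name the build hg38, featureCounts 2.0.6, STAR 2.7.11a and fastp 0.23.4. No source used here gives the strand setting, so overlapping genes may share reads. Of 62702 lines, 3 broken ones were not used, which left 62699 genes.

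Genes were tested in edgeR 4.0.16 (R 4.3.3) by robust quasi-likelihood over the 12 siRNA libraries in 8 groups, with TMM scaling, filterByExpr and Benjamini-Hochberg adjustment at 0.05. The spread came from the ADAR siRNA pairs (4 residual degrees of freedom), and the lone control was assumed to vary like them. The p-values measure only the spread between these samples, which may be technical. CPM is TMM-scaled. Log2 ratios per library used a prior count of 2, and errors after ± are standard errors of the fitted log2 fold change. Counting intervals cover 95% and counting error only. GC content came from GENCODE 29 transcripts (98.0% of measured genes) and promoters from RefSeq.

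The cell line, members and 40 gene lists were chosen with earlier results of these data known, and the ZNF and keratin groups after their values were seen. The rule named ADAR, ADARB1, NOP14, the called genes, the 8 protein-coding genes furthest past 2-fold each way at 5 CPM or more, 5 each way in 1 library alone (under 1.2-fold in the other), the 6 smallest p between lines, and the 3 smallest p in each list. Not all are described, and some results are not reported here. Genes with other values were named from the lists or after their values were seen. The fit was tested on simulated data, where more calls were unchanged genes than the threshold allows. Alternatives were DESeq2 1.42.0, other scalings, filters, prior counts and folds, a term for library number, GC and length removal, and leaving out libraries or lines.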

Additional observations from a re-analysis of the deposited data

Results flagged for a closer look

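For 4 genes both AGS libraries differed from their control in one direction and all 6 ADAR siRNA libraries of the other lines in the opposite one; the test of the difference gave no adjusted p under 0.05 in edgeR. DDIT4, an inhibitor of mTORC1, had a mean log2 ratio of -0.516 in AGS and ratios from 0.41 to 1.29 elsewhere (edgeR adjusted p = 0.834). LTBP3, a binding protein of latent TGF-beta, had -0.544 in AGS and 0.30 to 1.25 elsewhere (edgeR adjusted p = 0.834). STC2, a secreted stress response glycoprotein, had -2.02 in AGS, from 16 and 5 counts with ADAR siRNA against 42 with control siRNA, and 0.13 to 1.43 elsewhere (edgeR adjusted p = 1). PHF19, a subunit of Polycomb complexes, went the other way, with 1.25 in AGS, from 71 and 45 counts against 22, and -0.95 to -0.32 elsewhere (edgeR adjusted p = 0.834).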

How the results depend on the processing

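ADAR was called in all 12 alternative fits, at log2 fold changes from -2.50 to -2.06. The number of AGS calls was 1 and became 2 with median-ratio scaling, 33 with no count filter, 14 with DESeq2, 12 with the AGS libraries alone, 7 without BT-549 and 6 without NCI-H1395, the last 2 chosen after seeing the data. It ran from 1 to 8 when a knockdown library was left out, with 8 without library 1. Against the other lines the count was 0 and became 11 with no count filter, 3 with DESeq2, 1 without BT-549, 3 without NCI-H1395, and 0 to 1 when a knockdown library was left out. The lone AGS control could not be left out. The library numbers were not taken to pair the samples, since not every pair of lines deviated together. The difference between libraries 2 and 1 correlated across genes between AGS and BT-549 (0.17), AGS and NCI-H1395 (0.197) and BT-549 and NCI-H1395 (0.389), but not with MDA-MB-231 (-0.0752 to 0.0337), a hint from the data that the number is shared in 3 lines. With the replicate block, the calls were 65 in AGS (33 lower, 32 higher) and 19 against the other lines.

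The shared counts of 230 higher and 66 lower genes became 463 and 128 at 30 counts, 52 and 27 at 300 counts, 751 and 339 at 1.5-fold, 45 and 15 at 3-fold, and 128 higher at a prior count of 10. Recomputed list medians moved by less than the spread between the libraries in 279 cases and by more in 28; that of the apoptosis regulators changed sign (0.07 with library totals, against -0.02). Of the 20 genes named for 1 library alone, 6 changed sign when that library was left out. Leaving out either library gave log2 fold changes from -0.012 to 1.63 for SLCO1B1, -2.12 to 0.20 for FSTL3, -2.10 to 0.20 for NYAP2 and -1.91 to 0.10 for LRRC45, the sign change being without library 1. The ranges were -1.75 to 0.20 for RFK, -1.62 to 0.059 for LIN7C and -0.034 to 0.43 for HSPB1, the sign change being without library 2. ADARB2 and COL3A1, with 0 counts in the other AGS libraries, ran from 0.0 to 6.07 and from 0.0 to 5.88. Low counts limit the scarce genes: the interval of the STC2 log2 ratio in library 2 ran from -4.83 to -1.80.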
